A study of Mus musculus with 8 samples.

Results

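The windows described here are stretches of the mouse autosomes of 1000 bp that held few measured CpG positions and stood at an intermediate level in one sham-operated kidney. A CpG position was kept where all 8 libraries had at least 10 reads. A window was taken where it held 3 to 5 kept positions, and where the median over those positions in the ischemia sham library was from 30 to 70% methylated. This gave 6396 windows, which are 11.8% of the 53982 autosomal windows with 3 to 5 kept positions and 6.96% of all 91942 autosomal windows, out of 93730 windows tested in all. CpG-poor means few kept positions, since the genome sequence of the build was not used here. The windows were selected on measured levels of the ischemia sham, so their levels in that library are a description. The levels of the UUO and 5AZA libraries, of their own sham and of the libraries after ischemia took no part in the selection. Their depth did, through the minimum of 10 reads.

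The assay was reduced representation bisulfite sequencing of DNA (RRBS), which reads CpG positions near the CCGG sites cut by the enzyme MspI, in cortex and outer medulla of kidneys from wild type male C57BL/6J mice. The first group received unilateral ureteral obstruction (UUO, tying off and cutting the left ureter, a model of kidney fibrosis) for 7 days with 5AZA at 1 mg per kg per day, injected into the peritoneum in saline, with 2 libraries. The second received UUO for 7 days without 5AZA, with 2 libraries, and the third was a sham operation for UUO, with 1 library. Whether the mice of these groups received saline alone is not stated in the labels. Bilateral ischemia of 25 minutes, made by clamping both renal pedicles, was followed by reperfusion of 1 week or of 1 month, and had a sham of its own, with 1 library each. The ages of the mice are not given in the labels. Whether the libraries of a pair came from separate animals is not stated in the labels, so SDs and p-values speak only for these libraries. SDs measure the spread within a pair, and exact p-values depend only on the number and order of the libraries. Tests of single windows take their spread from the UUO and 5AZA pairs, moderated over all windows. In those tests the single libraries, both shams included, are assumed to vary like the pairs.

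In mammals DNA methyltransferases place methyl groups on cytosines of CpG dinucleotides, and most CpGs outside CpG islands are methylated in most cells. A level between the extremes in a tissue means that some molecules carry the mark and others do not, and regulatory elements that differ between cell types often read this way in bulk tissue. The labels do not spell out 5AZA, a name in common use for azacytosine nucleosides, which trap DNA methyltransferases once built into DNA, so that methylation is lost as cells divide. In bulk kidney, a change in the mix of cell types and a change of methylation within cells cannot be told apart.

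Inside these windows the intermediate level was rarely shared by all positions. Of the 6396 windows 1970 held 3 kept positions, 3065 held 4 and 1361 held 5, and their first and last positions spanned a median of 124 bp (quartiles 81 and 173 bp). In the UUO sham, which did not select them, positions of one window ranged over a median of 62.0 percentage points. Only 29 windows (0.453%) had all positions from 30 to 70% there, while 3440 (53.8%) held a position below 30% together with one above 70%. The name of intermediate methylation therefore fits the median of a window and seldom each of its positions. The median over positions stayed from 30 to 70% in 4530 windows (70.8%) in the UUO sham.

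Positions at the edges of fragments had a higher median than those inside. How much of the range within windows this makes up was not measured. RRBS fragments end at MspI sites, and the labels' protocol fills their ends with a nucleotide mix that contained methylated dCTP. Edges were located from read depth alone, among positions with at least 40 reads summed over the libraries. An edge had no neighbour within 250 bp on a side, or a change in depth of more than 10% to a neighbour. That change was the sum of the absolute changes of the libraries, divided by the larger summed depth. Of the 24975 positions in the windows 16882 (67.6%) were edges, against 58.0% of all kept positions. In the UUO sham the edge positions had a median of 76.8% (quartiles 56.9 and 87.7%), and the 8093 positions inside fragments a median of 37.7% (quartiles 19.4 and 54.1%). The insides were thus closer to the low end of the band and the edges above it.

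At least 1 inside position was present in 4580 windows, and 1816 windows had edges only. Read from their inside positions alone, 698 of the 4580 windows (15.2%) were below 10% in the UUO sham, 1137 (24.8%) from 10 to 30%, 2506 (54.7%) from 30 to 70% and 239 (5.22%) at 70% or more. Windows of low inside methylation with high edges thus stood beside windows that were intermediate inside. In the windows whose insides were below 10% in the ischemia sham, 793 in number, the insides of the UUO sham averaged 6.16% and the edges of the same windows 71.43%.

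**Figure D1:**
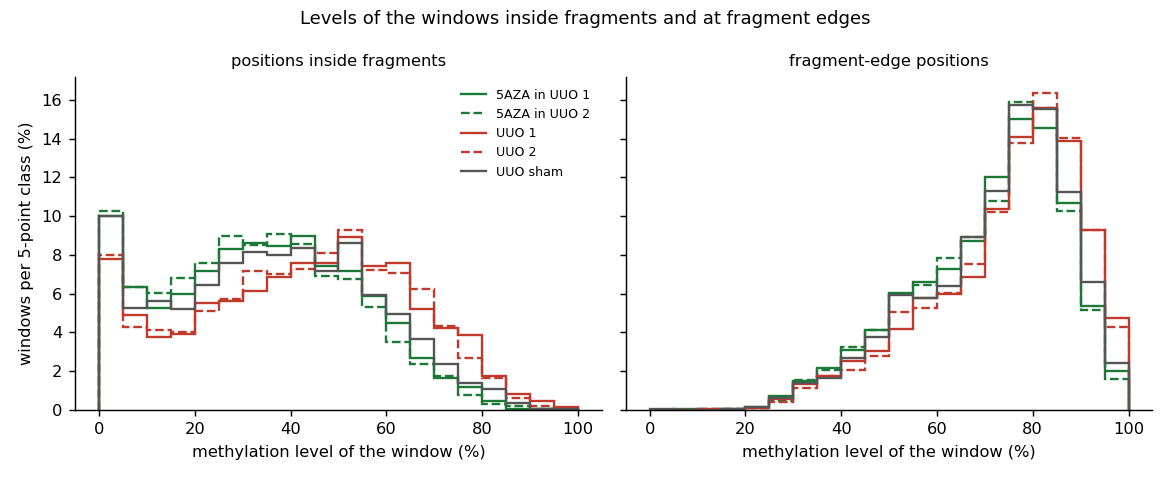
Share of windows (vertical axis, % per 5-point class) by methylation level (horizontal axis, %) in the 5AZA, UUO and UUO sham libraries, from inside positions on the left and edge positions on the right. Inside levels spread from 0 to above 70%, with a peak in the class nearest 0, and the UUO curves lie right of the 5AZA and sham curves, while edge levels gather near 80%.

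The libraries held 57853745 to 86411736 reads in all, and their median depth at a CpG position was 33 to 48 reads. A window of this kind held a median of 199 reads per library (lowest 30, highest 11747), against 264 over all windows. At this depth the 95% binomial interval of one window in one library typically reached 6.62 points to either side, which covers counting error only. Single windows are therefore imprecise, and the mean over the windows is the firmer measure.

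Averaged over the 6396 windows, the level was 56.80% and 56.48% in the 5AZA libraries, 61.85% and 61.81% in the UUO libraries and 58.48% in the UUO sham. Both UUO libraries were the highest of the 8, and both 5AZA libraries lay below the sham. Within the ischemia series the sham averaged 54.82%, the kidney at 1 week of reperfusion 55.35% and that at 1 month 57.13%. Inside fragments the UUO groups kept that order with larger steps, at 33.67% and 32.39% in the 5AZA libraries, 41.63% and 41.12% in the UUO libraries and 35.64% in the UUO sham. In the ischemia series the insides stood at 32.34% for the sham, 33.82% at 1 week and 36.37% at 1 month. At edge positions the 5AZA libraries were at 70.70% and 70.72%, the UUO libraries at 74.21% and 74.33% and the UUO sham at 71.98%. The edges of the ischemia sham were at 68.76%, those after 1 week at 68.60% and those after 1 month at 70.08%.

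**Figure D2:**
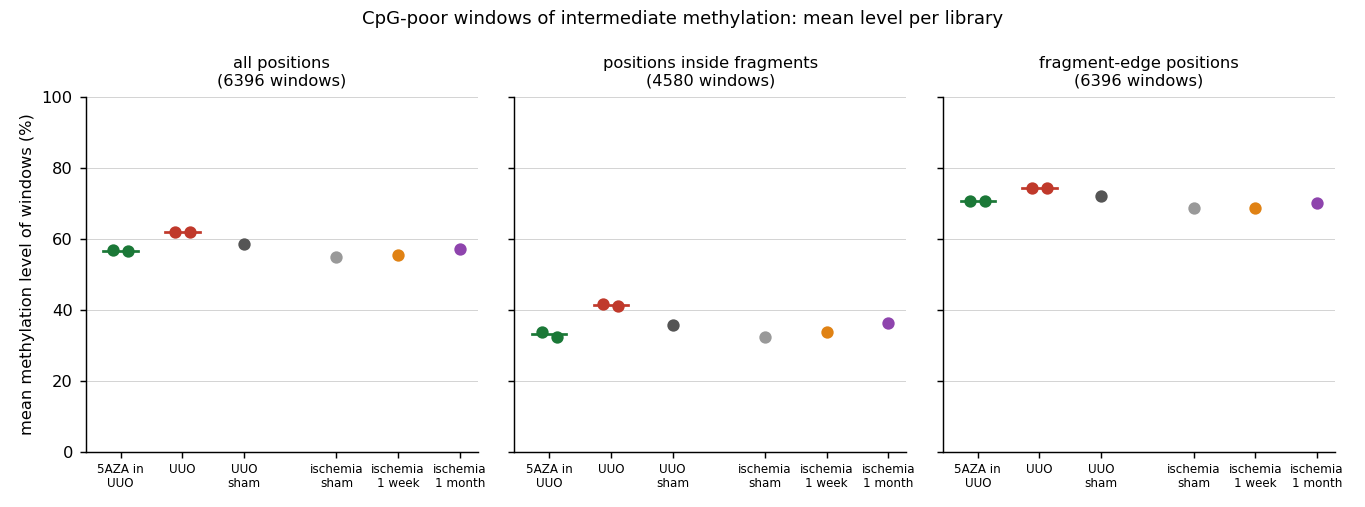
Mean methylation level (vertical axis, %) of the windows in each library, with one point per library and a bar at the mean of a pair, over all positions, inside positions and edge positions. In each panel both UUO points lie above the UUO sham and both 5AZA points lie below it, with the widest gaps inside fragments.

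The mean of these windows was higher after UUO than in the UUO sham, by more than over all windows. The mean level was 61.83% ± 0.026 (SD, n = 2) following UUO, against 58.48% in the UUO sham, 3.35 points higher. Inside fragments it was 41.38% ± 0.36 (SD, n = 2) following UUO, against 35.64% in the sham, 5.74 points higher, and at edges 74.27% ± 0.089 (SD, n = 2) following UUO, against 71.98% in the sham, 2.28 points higher. The same differences over all 93730 windows were 0.845 points, and 1.31 points inside fragments. Each difference exceeded the SD of the UUO pair, but the two-sided exact permutation test of 2 libraries against 1 gave p = 0.667, the smallest it allows. Across windows the difference had a median of 3.27 points, against a median of 0.467 points over all windows. It was above 0 in 69.8% of the windows described here, and that share was not computed over all windows. Every window was set against the same sham library, so windows are no replicates.

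The difference between both shams is the only measure here of how far control kidneys can lie apart. In the windows as selected the UUO sham was 3.65 points above the ischemia sham, and 3.30 points inside fragments. Selection on one sham can itself move that gap, so it was also measured in the 7030 windows chosen by the same rule on the library of 1 week after ischemia, which is neither sham. There UUO was 3.10 points above its sham and the UUO sham was 2.39 points above the ischemia sham. Inside fragments the UUO difference was 5.30 points and the sham difference 2.16 points, while at edges they were 2.14 and 2.05 points. Inside fragments the UUO difference was thus larger than the gap between shams, with either choice. At edges of the windows as selected it was smaller, at 2.28 points against a gap of 3.22 points, and over all their positions it was 3.35 against 3.65 points. Over all 93730 windows the UUO difference was 0.845 points and the sham gap 1.02 points. Since each sham belonged to its own surgical series, their gap includes whatever differed between the series.

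A call required an adjusted p under 0.05 together with a difference of 10 points or more. No window of the 6396 was called for UUO against its sham in the moderated quasi-binomial model with limma, against 0.0181% of all windows. An unadjusted p below 0.05 with a higher level after UUO was found in 831 windows (13.0%), against 5.62% of all windows. With a lower level after UUO it was found in 110 windows (1.72%), against 2.51% of all windows. Both UUO libraries lay above the sham in 3603 windows (56.3%), against 42.5% of all windows, and both lay below it in 1211 windows (18.9%), against 28% of all windows. edgeR and limma on log2 ratios called 0 windows as well. At an unadjusted p below 0.05 edgeR found 702 higher and 92 lower (11% and 1.44%, against 5% and 2.35% of all windows). limma found 587 higher and 97 lower (9.18% and 1.52%, against 4.62% and 3.29% of all windows). Of the fits with 1 library left out, those without 5AZA 1 and without 5AZA 2 are the same fit for this comparison. Both take their spread from the UUO pair alone. Leaving out UUO 1 gave 0 calls, UUO 2 gave 1, 5AZA 1 gave 2 and 5AZA 2 gave 2, which is at most 0.0313% in each fit, while 0.0096 to 0.101% of all windows were called in the same fits.

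The 3 windows with the smallest p for UUO were not called, and they moved in both directions. In chr19:53628001-53629000 (all coordinates are in build mm9) the level was 68.57% and 75.58% in the UUO libraries and 51.52% in the UUO sham, which is 20.56 points higher after UUO (SE 3.55, adjusted p = 0.153). The 5AZA libraries were at 67.08% and 68.09%, so this window stood above the sham with and without 5AZA. Ischemia after 1 month was also high there at 72.40%, with 60.97% after 1 week and 55.82% in the ischemia sham. In chr3:104467001-104468000 the UUO libraries were at 88.94% and 84.56% and the UUO sham at 64.55%, which is 22.21 points higher after UUO (SE 4.11, adjusted p = 0.166). Its 5AZA libraries, at 65.13% and 64.84%, were at the level of the sham, and the window was among those called between 5AZA in UUO and UUO.

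The third of them was lower after injury. In chr7:16792001-16793000 the UUO libraries were at 53.11% and 57.88% and the UUO sham at 77.49%, or -22.00 points after UUO (SE 3.49, adjusted p = 0.154). The library after 1 week of ischemia was at 53.20%, that after 1 month at 51.29%, and the ischemia sham at 78.99%. All 4 libraries of untreated injury thus lay below both shams, and the 5AZA libraries, at 63.78% and 57.75%, did too. The lower levels were most marked at the 2 inside positions of the window. At the first of them, base 16792954, the UUO libraries were at 16.7% and 23.2% and the UUO sham at 52.9%. The first edge position of the same window was at 97.6% or more in every library. That edge and the next one held 89 and 98 reads in the UUO sham, 28 and 33 in UUO 1 and 50 and 53 in UUO 2. Each of the later positions held 68 reads in the UUO sham, 60 in UUO 1 and 82 in UUO 2. In order along the window, the UUO means of the positions were 100%, 100%, 67.64%, 19.92% and 28.64%. The UUO sham was at 100%, 95.92%, 76.47%, 52.94% and 47.06% in the same order. The level of all reads weights positions by their reads, so its -22.00 points also hold these shifts in depth. A difference with equal weight per position was not tested.

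The size of the UUO difference depended on the starting level. Among CpG-poor autosomal windows in 10-point classes of the ischemia sham median, the inside difference between UUO and its sham was 1.00 point in the class below 10%, 4.40 points from 10 to 20% and 6.23 points from 20 to 30%. Within the band it was 4.46 points from 30 to 40%, 6.33 points from 40 to 50%, 6.98 points from 50 to 60% and 5.24 points from 60 to 70%, the upper end included. Above the band it was 3.64 points from 70 to 80%, 1.73 points from 80 to 90% and 0.12 points from 90% up. The band thus held the highest class, while the class just below it was within the range of the classes in the band and the class just above it was under that range.

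Set against whole sets of other windows, the difference was larger in the windows described here, though not against each neighbouring class. The inside difference after UUO exceeded that of the 30070 CpG-poor windows above the band by 4.89 points, that of the 2441 below the band by 3.44 points, and that of the 150 windows with 20 or more kept positions in the same band by 3.47 points. Of the 2441 windows below the band 1713 were below 10%, where the inside difference was 1.00 point. In the 383 windows from 20 to 30% it was 6.23 points, above the 5.74 points of the windows described here. In the exact permutation test over libraries each of the gaps to the whole sets had p = 0.667, the smallest that 2 against 1 allow. The SD of the gap over the UUO pair was 0.50, 0.27 and 0.04 points in the same order.

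**Figure D3:**
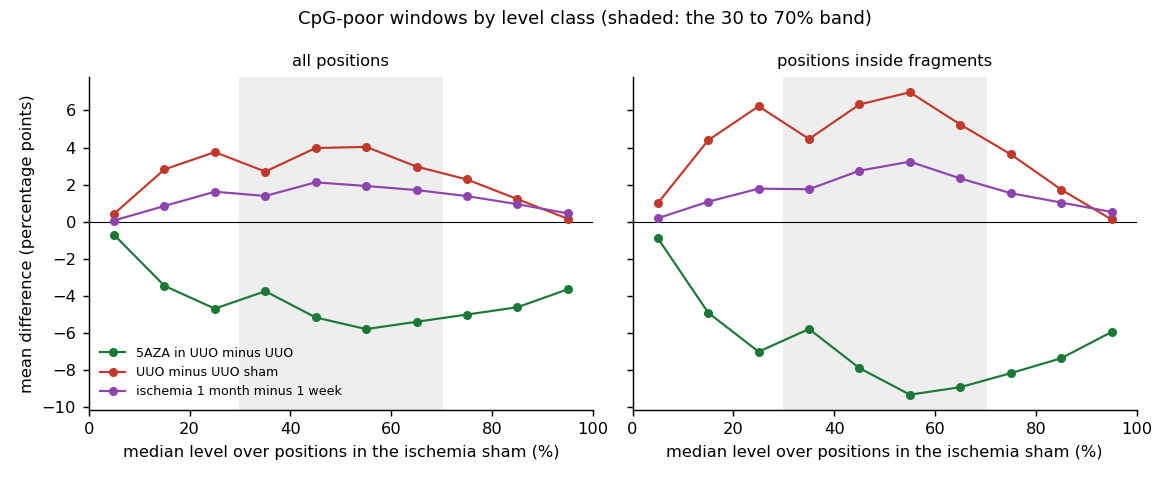
Mean difference between libraries (vertical axis, percentage points) in CpG-poor autosomal windows by 10-point class of the median level in the ischemia sham (horizontal axis, %), over all positions on the left and inside positions on the right, with the band from 30 to 70% shaded. UUO minus its sham and ischemia 1 month minus 1 week are highest from 40 to 60% and lowest or next to lowest at the top class, while 5AZA minus UUO is below 0 in every class shown.

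Split by the inside level in the ischemia sham, the windows differed most between UUO and sham, in points, where the insides were at 10 to 30%. In the 1195 windows at 10 to 30% the insides averaged 32.31% ± 0.51 (SD, n = 2) following UUO, against 24.77% in the UUO sham, 7.54 points higher. In the 2558 windows at 30 to 70% they averaged 55.20% ± 0.32 (SD, n = 2) following UUO, against 49.31% in the sham, 5.88 points higher. In the 793 windows below 10% they averaged 8.96% ± 0.25 (SD, n = 2) following UUO, against 6.16% in the sham, 2.81 points higher, while in the 34 windows at 70% or more the difference was 0.45 points, less than the UUO pair's SD of 0.76 points. Relative to the sham level the difference was 45.6% below 10%, 30.4% at 10 to 30% and 11.9% at 30 to 70%. These differences were not tested between classes.

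In obstructed kidneys the mean of these windows was lower with 5AZA than without it, in both libraries. The mean level was 56.64% ± 0.22 (SD, n = 2) under 5AZA, against 61.83% ± 0.026 (SD, n = 2) in UUO without it, a difference of -5.19 points. Inside fragments it was 33.03% ± 0.91 (SD, n = 2) under 5AZA, against 41.38% ± 0.36 (SD, n = 2) in UUO, a difference of -8.35 points, and at edges it was -3.56 points. Over all windows the difference was -3.18 points, and -4.66 points inside fragments. In each of these means the 5AZA libraries were both below the UUO pair, for which the two-sided exact permutation test gave p = 0.333, the smallest that 2 against 2 allow.

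The lower level with 5AZA extended through the highly methylated windows. The inside difference in CpG-poor windows was -9.32 points in the class from 50 to 60% and still -5.94 points from 90% up. The gap between the windows described here and those above the band was -1.85 points inside fragments, with an SD of 0.57 points over the 5AZA pair and 0.50 points over the UUO pair, and p = 0.333 in the exact permutation test. Against the 150 windows with 20 or more positions in the band the gap was -3.69 points, with an SD of 1.298 points over the 5AZA pair, and against those below the band -5.94 points, with an SD of 0.69 points, at the same p of 0.333 in the exact permutation test.

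In single windows, 31 of the 6396 (0.485%) were called between UUO with and without 5AZA in the moderated quasi-binomial model with limma, all of them lower with 5AZA, against 0.361% of all windows. That share is close to the background. An unadjusted p below 0.05 with a lower level was found in 1528 windows (23.9%), against 23.3% of all windows, and with a higher level in 22 (0.344%), against 0.9% of all windows. The 5AZA pair lay wholly below the UUO pair in 3308 windows (51.7%), against 49.2% of all windows, and wholly above it in 281 (4.39%), against 5.61% of all windows. The calls depended on the libraries and the tool, with 0 calls without UUO 1, 5 without UUO 2, 93 without 5AZA 1 and 3 without 5AZA 2, while edgeR made 1 call and limma on log2 ratios made 0. Of all windows 0.0203%, 0.135%, 1.39% and 0.108% were called in the same 4 fits with a library left out, and 0.0533% in edgeR. A fit with the replicate number as a block gave 424 calls (6.63%), against 2.83% of all windows, although the numbers were not shown to pair the libraries. At an unadjusted p below 0.05 edgeR found 1365 windows lower (21.3%, against 23.3% of all windows) and limma 1142 (17.9%, against 22.1%).

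The 31 called windows lay on 14 autosomes, and 21 of them held 5 positions. Their differences ran from -30.85 to -13.91 points, with a median of -20.93. The values that follow were picked by that test, so they describe the windows and support nothing further. Their mean level was 55.21% and 54.47% in the 5AZA libraries, 76.18% and 75.19% in the UUO libraries and 63.10% in the UUO sham. The sham lay between both groups in 26 of the 31.

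The window with the smallest adjusted p was chr9:114625001-114626000, with 1 edge and 4 inside positions. Its level was 36.84% and 39.80% with 5AZA and 67.51% and 70.51% in UUO, with 234 to 407 reads per library. The difference was -30.69 points (SE 3.08, adjusted p = 0.0110 in the moderated quasi-binomial model with limma), and the UUO sham stood between the groups at 52.92% (95% exact binomial interval 47.34 to 58.46). Among the ischemia libraries the sham was at 50.54%, the library of 1 week at 39.70% and that of 1 month at 52.83%. It was called in edgeR (adjusted p = 0.0292) and not in limma on log2 ratios (adjusted p = 0.151), nor without UUO 1 (adjusted p = 0.0501).

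Its 4 inside positions differed between the groups in the same way. They lie within 151 bp of the first position, and their levels ranged from 24.2 to 34.4% in the 5AZA libraries, from 60 to 67.4% in the UUO libraries and from 38.5 to 55.4% in the UUO sham. At the edge position the 5AZA libraries were at 77.4% and 85.2% and the UUO libraries at 89.2% and 93.5%. The step in the window was thus carried by the insides.

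**Figure D4:**
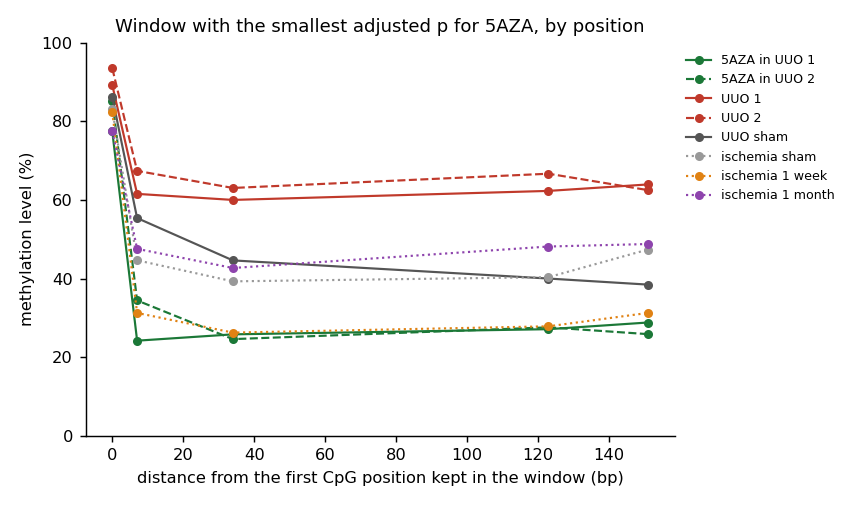
Methylation level (vertical axis, %) at each kept CpG position of the window with the smallest adjusted p for 5AZA in UUO, by distance from its first position (horizontal axis, bp), with one line per library. The first position is an edge and is high in all libraries, and at the other 4 positions both UUO lines lie from 60 to 67.4% and both 5AZA lines from 24.2 to 34.4%.

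The other named falls had less even support. In chr12:13191001-13192000 the level was 51.28% and 56.52% with 5AZA and 87.50% and 82.00% in UUO, a difference of -30.85 points (SE 4.54, adjusted p = 0.0395), with 63.41% in the UUO sham. This window was not called without UUO 1 (adjusted p = 0.206), without UUO 2 (adjusted p = 0.0626), without 5AZA 2 (adjusted p = 0.0760) or in edgeR (adjusted p = 0.0509). In chr4:136256001-136257000 the level was 49.04% and 46.11% with 5AZA and 70.50% and 71.84% in UUO, a difference of -23.59 points (SE 3.30, adjusted p = 0.0329), with 54.85% in the UUO sham. It was not called without UUO 1 (adjusted p = 0.139), without UUO 2 (adjusted p = 0.0739), without 5AZA 2 (adjusted p = 0.0552) or in edgeR (adjusted p = 0.0509).

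In 2 of the named falls the UUO sham stood near the UUO level instead of between the groups. In chr18:73947001-73948000 the level was 64.08% and 53.92% with 5AZA, 89.20% and 81.70% in UUO and 81.94% in the UUO sham. In chr12:26962001-26963000 it was 34.85% and 41.48% with 5AZA, 67.95% and 60.68% in UUO and 64.66% in the UUO sham. The remaining named falls, chr11:94935001-94936000, chr13:119394001-119395000 and chr12:88498001-88499000, differed by -28.04, -25.67 and -23.98 points.

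Set against the UUO sham, 5AZA in UUO stood slightly lower, and the distance grew with the inside level. The mean was 56.64% ± 0.22 (SD, n = 2) under 5AZA, against 58.48% in the UUO sham, or -1.84 points, against -2.34 points over all windows. Inside fragments the difference was -2.60 points. In the 793 windows with insides below 10% in the ischemia sham it was -0.20 points, with 5.95% ± 0.07 (SD, n = 2) under 5AZA, against 6.16% in the UUO sham. In the 1195 windows at 10 to 30% it was -1.17 points, and in the 2558 windows at 30 to 70% it was -3.97 points, with 45.35% ± 1.29 (SD, n = 2) under 5AZA, against 49.31% in the sham. The exact permutation test of 2 against 1 gave p = 0.667 for the mean over windows, the smallest it allows.

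No window was called between 5AZA in UUO and the UUO sham, against 0.00213% of all windows. A lower level at an unadjusted p below 0.05 was found in 330 windows (5.16%), against 11.8% of all windows, and a higher one in 50 (0.782%), against 0.705% of all windows. edgeR and limma on log2 ratios called 0 windows. At an unadjusted p below 0.05 edgeR found 269 lower and 31 higher (4.21% and 0.485%, against 12.2% and 0.593% of all windows), and limma found 264 lower and 37 higher (4.13% and 0.578%, against 13.2% and 0.322%). Leaving out 5AZA 1 gave 1 call in the quasi-binomial model (0.0156%, against 0.0224% of all windows). The window with the smallest p, chr7:116781001-116782000, was at 44.80% and 33.51% with 5AZA and 65.78% in the UUO sham, a difference amounting to -26.62 points (SE 5.14, adjusted p = 0.317 in the same model). Its UUO libraries, at 63.27% and 60.26%, stood near the sham. The deepest window of the set, chr1:124253001-124254000, held 5711 to 11747 reads per library and was at 55.02% and 50.03% with 5AZA and 61.35% in the sham. Its UUO libraries, at 54.44% and 56.13%, were below the sham as well. Base 124253772 in it held 1986 to 3924 reads per library, against library medians of 33 to 48 reads at a CpG position. The third was chr11:103124001-103125000, at 30.10% and 28.32% with 5AZA and 56.38% in the sham.

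After ischemia the windows were higher at 1 month than at 1 week. The mean level was 57.13% after 1 month and 55.35% after 1 week, 1.78 points higher, against 0.619 points over all windows. Inside fragments it was 36.37% after 1 month and 33.82% after 1 week, 2.54 points higher, and at edges 1.48 points higher. The difference was above 0 on 19 of 19 autosomes, from 1.201 to 2.37 points, though autosomes share their libraries and are no replicates. With 1 library at each time this mean has no replicate check.

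No window was called between 1 month and 1 week in the moderated quasi-binomial model with limma, against 0% of all windows. In that model the single libraries are assumed to vary like the UUO and 5AZA pairs. A higher level at 1 month with an unadjusted p below 0.05 was found in 328 windows (5.13%), against 3.16% of all windows, and a lower one in 70 (1.09%), against 1.35% of all windows. edgeR and limma on log2 ratios called 0 windows too. At an unadjusted p below 0.05 edgeR found 238 higher and 45 lower (3.72% and 0.704%, against 2.7% and 1.12% of all windows). limma found 158 higher and 46 lower (2.47% and 0.719%, against 3.07% and 1.52%), so by that tool the higher windows were no larger a share here than over all windows.

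The 3 windows with the smallest p were all higher at 1 month and were not called. In chr17:71638001-71639000 the level was 78.96% after 1 month and 54.04% after 1 week, a difference of 24.92 points (SE 3.68, adjusted p = 0.520), with 67.52% in the ischemia sham. Its 3 inside positions were at 61.5 to 72.7% after 1 month and 34.02 to 36.7% after 1 week. In chr13:6631001-6632000 the level was 86.05% after 1 month and 63.17% after 1 week, a difference of 22.88 points (SE 3.57, adjusted p = 0.520). The ischemia sham was at 72.56% there. In chr17:25367001-25368000 it was 67.96% after 1 month and 50.05% after 1 week, with 68.61% in the ischemia sham. The level at 1 month was thus near the ischemia sham in that window, and the level at 1 week was below it. In all 3 windows both UUO libraries were above the UUO sham as well. In chr17:25367001-25368000 they were at 65.81% and 63.29%, against 60.57% in the UUO sham. In chr13:6631001-6632000 these were 87.68% and 85.02% in UUO and 75.16% in the UUO sham, and this window was also among the 31 called for 5AZA, with 68.21% and 66.45% in the 5AZA libraries.

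Against the ischemia sham, the library that selected the windows, the values differed with how the windows were chosen. As selected, the level was 0.53 points above the sham after 1 week and 2.31 points after 1 month. In the 5907 windows chosen by the same rule on the UUO sham, it was -0.73 points after 1 week and 1.00 point after 1 month. Inside fragments of those windows the differences were 0.25 and 2.65 points. Choosing instead on the other ischemia library gave -0.92 points after 1 week and 0.87 points after 1 month over all positions, and -0.07 and 2.40 points inside fragments. The inside level after 1 month was above the sham under each of these choices, and that after 1 week was between 0.07 points below and 1.49 points above it.

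Windows that were higher after UUO also tended to be higher at 1 month than at 1 week of ischemia, in libraries that the UUO comparison did not use. The 6396 windows were sorted by UUO minus UUO sham into 5 groups of about equal size (quintiles). In the top quintile of 1280 windows, where UUO was 13.04 points above its sham on average, ischemia was at 60.08% after 1 month and 56.51% after 1 week, 3.57 points higher. In the lowest quintile of 1279 windows, where UUO stood at -6.15 points from its sham, ischemia was at 54.90% after 1 month and 54.95% after 1 week. The share of windows higher at 1 month was 71.25% in the top quintile and 50.3% in the lowest.

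The same graded order was seen inside fragments. There ischemia was 5.38 points higher at 1 month than at 1 week in the top quintile, 3.68 in the fourth, 2.36 in the third, 1.201 in the second and 0.09 points in the lowest. Sorting by UUO 1 minus UUO 2, which holds no treatment, gave inside differences between 1.77 and 3.20 points with no steady order. Over all positions the same sorting gave 1.32, 1.48, 2.00, 1.80 and 2.30 points from the lowest quintile up, and at edges it climbed steadily, at 1.11, 1.29, 1.52, 1.59 and 1.90 points. A weaker gradient of the same direction was thus also seen with a sorting inside one group. Across the 4580 windows the inside difference of UUO from its sham correlated with that of 1 month from 1 week at a Pearson r of 0.22 (Spearman 0.22), as a description across windows of the same 5 libraries. The r for the difference between both UUO libraries was 0.02. The first r was 0.07 in CpG-poor windows above the band (30070 windows), 0.17 in those below it (2441 windows) and 0.13 over all windows (74266). Over all positions it was 0.23 in the windows described here, 0.10 above the band, 0.29 below it and 0.20 over all windows. There the r for the difference between both UUO libraries was 0.06, 0.04, 0.19 and 0.08 in the same order. The relation was thus not confined to the windows described here.

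**Figure D5:**
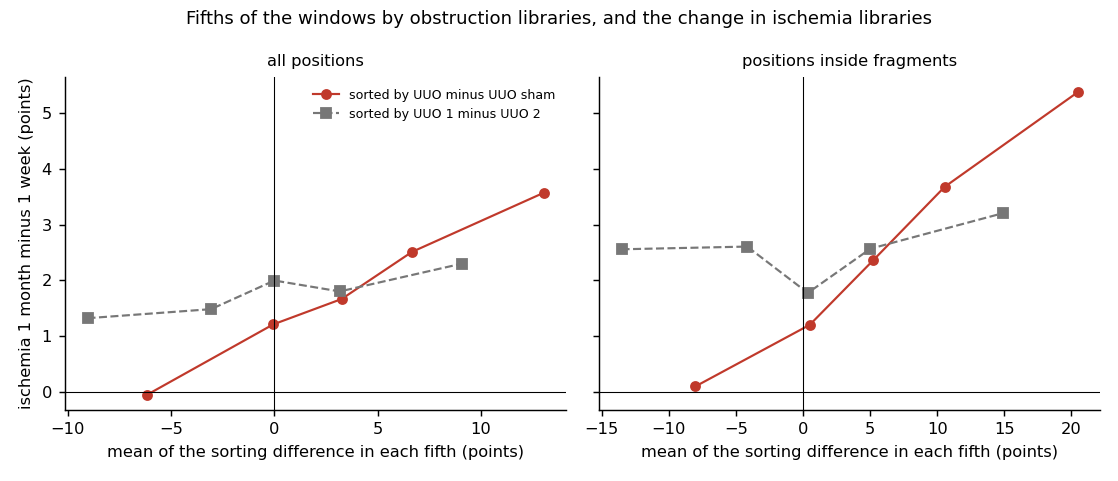
Mean difference between ischemia at 1 month and at 1 week (vertical axis, percentage points) in quintiles of the windows (one point each), against the mean of the difference by which they were sorted (horizontal axis, points). Sorted by UUO minus UUO sham the ischemia difference climbs in each quintile, inside fragments to 5.38 points, whereas sorted by UUO 1 minus UUO 2 it stays between 1.32 and 3.20 points.

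In the 31 windows called for 5AZA the ischemia libraries differed in the same way. Their mean was 65.16% after 1 month, 57.37% after 1 week and 57.91% in the ischemia sham. The level at 1 month was above that at 1 week in 26 of the 31 (83.9%), against 62.1% of the 6396 windows, with a median difference of 8.61 points and a range from -10.54 to 23.60 points. These windows were called from UUO and 5AZA libraries alone, stood high in UUO, and the difference was not tested.

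The differences kept their direction in each split of the windows by make-up, and their size varied. UUO minus its sham was 3.02 points in windows with 3 positions, 3.35 points with 4 and 3.84 points with 5, and 5AZA minus UUO was -4.85, -5.04 and -6.05 points in the same order. In 3 groups of equal size by read depth, from the shallowest, UUO minus its sham was 3.02, 3.55 and 3.49 points and 5AZA minus UUO -5.36, -5.34 and -4.88 points. Windows with no inside position showed 2.23 points for UUO minus its sham and those with one 3.80 points, over all their positions, and 5AZA minus UUO was -4.15 points without and -5.60 points with one. On single autosomes UUO minus its sham ran from 2.56 to 4.22 points and 5AZA minus UUO from -5.78 to -4.68 points. The windows made up 10.4% of the CpG-poor windows on chromosome 16, the lowest share, and 13.6% on chromosome 11, the highest, and 119 of them had another in the next 1000 bp.

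Windows at the ends of the band show what the threshold separates. Just inside the lower end, chr2:168218001-168219000 had a median of 30.0% over positions in the ischemia sham, but its summed reads gave 72.28% there and 83.39% in the UUO sham. In the ischemia sham every position but the last held 10 reads, the minimum, and the last held 61. In the UUO sham the positions before the last were at 58.8 to 94.1%, with 34 reads each. Just outside it, chr5:134651001-134652000 had a median of 29.99% and summed reads of 44.77% in the ischemia sham. Just inside the upper end, chr1:36065001-36066000 had a median of 70% and summed reads of 77.42% in the ischemia sham, and just outside it chr2:165667001-165668000 had 70.01% and 70.87%. A median over 3 to 5 positions and the level of all reads can thus lie far apart in one window.

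The windows with the most inside positions held 4 of 5 inside fragments, and 3 were picked by depth among them. In chr13:59828001-59829000 the level was 38.97% and 45.64% with 5AZA, 45.67% and 46.35% in UUO and 48.43% in the UUO sham. In chr12:19295001-19296000 it was 50.79% and 55.12% with 5AZA, 60.19% and 55.45% in UUO and 53.83% in the sham. In chr5:116106001-116107000 it was 43.89% and 45.47% with 5AZA, 50.11% and 59.34% in UUO and 43.58% in the sham. In these 3 windows the edge position was higher than every inside position in each library.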

How the data were processed

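RRBS libraries of mouse kidney, 8 in 6 groups, were analysed. Each deposited table holds, per CpG dinucleotide, whole-number counts of all reads and of methylated reads, and a methylation fraction computed by the authors, which was used only to check the counts. Reads were aligned with Bowtie to mm9, per the submitters' processing notes. The methylation caller is not given in the sources used here, nor are versions or filters, and bisulfite conversion could not be measured.

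From these counts, positions with at least 10 reads in all 8 libraries were grouped into 1000 bp windows, and a window's level is its methylated reads over all its reads. Means weight windows equally. A position was called inside a fragment where both neighbours lay within 250 bp with a change in depth of at most 10%. Otherwise it was called an edge. Neighbours were taken among positions with at least 40 reads summed over the libraries. The change was the sum of the absolute changes of the libraries, divided by the larger summed depth. Filled-in ends can carry methylation that the kidney did not have, so edges are given apart.

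Library means were compared with two-sided exact permutation tests. Single windows were tested on all 93730 windows of the autosomes, X and Y with a quasi-binomial model over the 6 groups, with dispersions moderated by limma 3.58.1 in R 4.3.3, not below 1, and Benjamini-Hochberg adjustment. Calls needed an adjusted p under 0.05 with a difference of 10 points or more. As alternatives, edgeR 4.0.16 was run on the same counts and limma on log2 ratios (pseudocount 1). The tests were also run on simulated reads in which all libraries had the same spread. Such reads cannot check whether single libraries vary like the pairs. Windows and lists were chosen with earlier results of these data known. Named windows were up to 8 largest called rises and falls in every library pair, or, where fewer than 3 were called, the 3 with the smallest p, together with 2 at each side of both band ends and the 3 deepest with the most inside positions. Windows have no gene names or sequences, since no annotation of the build was used here. Depth gives the intervals, which cover counting error only.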

Additional observations from a re-analysis of the deposited data

Results flagged for a closer look

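In 5 places libraries moved apart or a signal lay outside the windows described, and no difference below was tested. At the edge positions of the windows, ischemia stood -0.17 points from its sham after 1 week, while after 1 month it stood 1.31 points above it. The same -0.17 points after 1 week lay opposite to UUO, which was 2.28 points above its own sham at edges. In the windows chosen on the UUO sham, ischemia stood -0.73 points from its sham after 1 week and 1.00 point after 1 month. At the edges of those windows it was -1.32 points after 1 week and 0.12 points after 1 month. On the X chromosome, which the rule left out, 82 windows met the other criteria. Their mean was 53.13% and 54.11% with 5AZA, 56.61% and 55.82% in UUO and 54.22% in the UUO sham, so that UUO was 1.99 points above its sham.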

How the results depend on the processing

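Over the alternatives that did not select on the UUO sham and kept the edge limit of 10%, UUO minus its sham stayed between 2.28 and 5.74 points, 5AZA minus UUO between -8.35 and -3.56 points, and 5AZA minus the UUO sham between -2.60 and -1.28 points. Selecting on the UUO sham, which is then in the contrast, gave 4.32 points for UUO minus its sham (6.54 inside, 3.20 at edges) and -0.78 points for 5AZA minus that sham (-1.60 inside, -0.32 at edges). Inside fragments, edge limits of 5% and 20% gave 5.88 and 5.68 points for UUO minus its sham and -8.55 and -8.22 points for 5AZA minus UUO. Calls between 5AZA in UUO and UUO, 31 as reported, numbered 0 with inside positions, 0 with edge positions, 13 in a band of 40 to 60%, 1 in edgeR and 0 in the limma fit of log2 ratios, and leaving out 1 library gave 0 to 93. With a minimum of 20 reads 30 were called, of which 22 were shared. Of these 30, 29 were lower with 5AZA and 1 was higher. The share of all windows called in the inside, edge and 20-read fits is not given here. Those counts were therefore not set against a background. The replicate block gave 424 calls (6.63%, against 2.83% of all windows), 422 of them lower with 5AZA, and an exact sign-flip p of 0.5 for the mean of -5.19 points, the smallest it allows. Same-numbered UUO and 5AZA libraries deviated together with a correlation of 0.07 over all windows, so the numbers were not taken to pair them. Calls for UUO against its sham numbered 2 with only these groups fitted, against 0.101% of all windows. That fit takes its spread from the UUO pair alone, as do the fits without 5AZA 1 or without 5AZA 2. For this comparison it thus repeats them. Leaving out UUO 2 changed these calls as well, and leaving out 5AZA 1 changed those for 5AZA against the UUO sham. The cause of these shifts was not tested.

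Ischemia after 1 week minus its sham, 0.53 points as reported, was 0.35 with 20 reads, 1.49 inside, -0.17 at edges, 0.28 with windows chosen on the level of all reads and 0.67 in the narrower band. After 1 month, 2.31 points as reported, it was 2.08, 4.03, 1.31, 1.92 and 2.68 in the same order, 2.17 with windows shifted by 500 bp and 2.14 with all reads pooled. Choosing on the UUO sham gave -0.73 after 1 week and 1.00 after 1 month. Added after seeing the data, the insides of those windows gave 0.25 after 1 week and 2.65 after 1 month, and their edges -1.32 and 0.12. Choosing on the other ischemia library, also added, gave -0.92 after 1 week and 0.87 after 1 month. The 8 named falls and 2 other named windows called for 5AZA were still called in 50 of 116 refits. Of these calls 10 came from fitting only the 2 groups compared, which repeats the fit as reported. Another 10 came from the replicate block, 10 from leaving out the deepest positions and 8 from the minimum of 20 reads. With inside positions, edge positions or limma on log2 ratios 0 were called, and 1 in edgeR. The remaining calls came from fits with 1 library left out. Depth limits single windows, whose 95% intervals reached a median of 6.62 points to either side.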
